A study of Homo sapiens with 12 samples.

Results

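Collagen chain genes encode the polypeptides that wind around one another into the triple helices of collagen. They were taken as every symbol in the deposited count files made of COL, a number, the letter A and a number, with no antisense or pseudogene suffix, which gave 44 of 26485 listed genes. RNA was sequenced from A549, a lung adenocarcinoma line, and BEAS-2B (B2B), a line of immortalised human bronchial epithelial cells, both labelled wild type. Each line was left untreated (NT) or was exposed for 72 h to SR11302 at 10 µM, which acts against AP-1 (the dimeric Jun and Fos transcription factors), or to SP600125 at 50 µM, which blocks the kinases that phosphorylate Jun (JNK). This gave 12 libraries in 6 groups of 2, written A549_NT, A549_SR11302, A549_SP600125, B2B_NT, B2B_SR11302 and B2B_SP600125. The compounds came in DMSO. Whether the NT cells received that solvent is not settled, since the labels say untreated and figure legends of the study mention DMSO. Each group stands for 1 established line, and the sources do not say whether its 2 libraries came from separate cultures, so the p-values measure only the spread between these libraries.

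Collagens are built into different structures outside the cell. Fibrillar chains (types I, II, III, V, XI, XXIV and XXVII) form the banded fibres of connective tissue, and type IV chains form the network of basement membranes. Type VI makes beaded filaments, type VII anchors epithelium to the tissue beneath it, types VIII and X make short-chain networks, the FACIT group (types IX, XII, XIV, XVI and XIX to XXII) sits on the surface of fibres, types XIII, XVII, XXIII and XXV cross the plasma membrane, and the multiplexins (types XV and XVIII) lie in basement membrane zones. Airway and alveolar epithelium are best known for basement membrane collagens and type VII, while fibroblasts are the usual source of the fibrillar types I and III.

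Of the 44 genes, 41 had a count in at least 1 library and 35 passed the filter on low counts and were tested. COL6A5, COL9A1 and COL19A1 had no count in any library. COL2A1, the cartilage chain, COL6A6, COL22A1, COL23A1, COL25A1 and COL28A1 had at most 22 counts in any library and were not tested. Levels are given as CPM, edgeR's counts relative to library size, after TMM scaling, with the 2 libraries of a group named replicate 1 and replicate 2. A gene was called where the Benjamini-Hochberg adjusted p of edgeR's quasi-likelihood test over 16373 genes was under 0.05 and the log2 fold change was at least 0.5 in size. Fold changes are log2 values ± SE.

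The libraries held 13969766 to 24917854 gene counts each. Reads in no annotated gene made up 23.8 to 25.9% of all tallied reads in the 4 untreated libraries and 14.6 to 20.1% in the 8 treated ones, so this share and the treatment cannot be told apart. In A549_NT replicate 2, 5 genes abundant in B2B stood at 0.333% of their untreated B2B level, against 0.0705% in A549_NT replicate 1. In B2B_NT replicate 2, 19 genes abundant in A549 stood at 0.578% of their untreated A549 level, against 0.0387% in B2B_NT replicate 1. These genes were chosen to have at least 100 CPM in every treated library of the one line and at most 1 CPM in those of the other. Low values in the treated libraries (0.0406 to 0.0617% in A549 and 0.0203 to 0.0366% in B2B) were therefore set by that choice. Epithelial markers (EPCAM, CDH1, KRT8, KRT18 and KRT19) summed to 11653 to 13398 CPM in A549_NT, 5379 to 6413 in A549_SR11302 and 5075 to 5092 in A549_SP600125, and to 781 to 870, 543 to 633 and 400 to 436 CPM in the B2B groups in the same order. KRT8 and KRT18 made up most of these sums. CDH1 was instead higher in A549_SP600125, at a mean of 409 CPM against 125 CPM in A549_NT. In B2B the CDH1 mean went from 1.18 CPM untreated to 2.16 CPM with SR11302 and 2.88 CPM with SP600125. The EPCAM mean in B2B went from 1.89 to 2.31 CPM with SP600125. The basal markers KRT5, KRT14 and TP63 were at or under 0.12, 0.19 and 0.06 CPM in B2B, while the 4 basal markers, nearly all KRT17, summed to 388 to 418 CPM in B2B_NT, 242 to 296 in B2B_SR11302 and 38.9 to 59.2 in B2B_SP600125. Of 6 fibroblast markers, THY1 and PDGFRB stood above 1 CPM in B2B, at 123 to 204 and 61.2 to 86.9 CPM, and DCN, LUM, PDGFRA and FAP stayed under 1 CPM. The part of these markers in the results was not tested, and in bulk RNA fewer cells of a kind and less RNA per cell cannot be told apart.

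**Figure D1:**
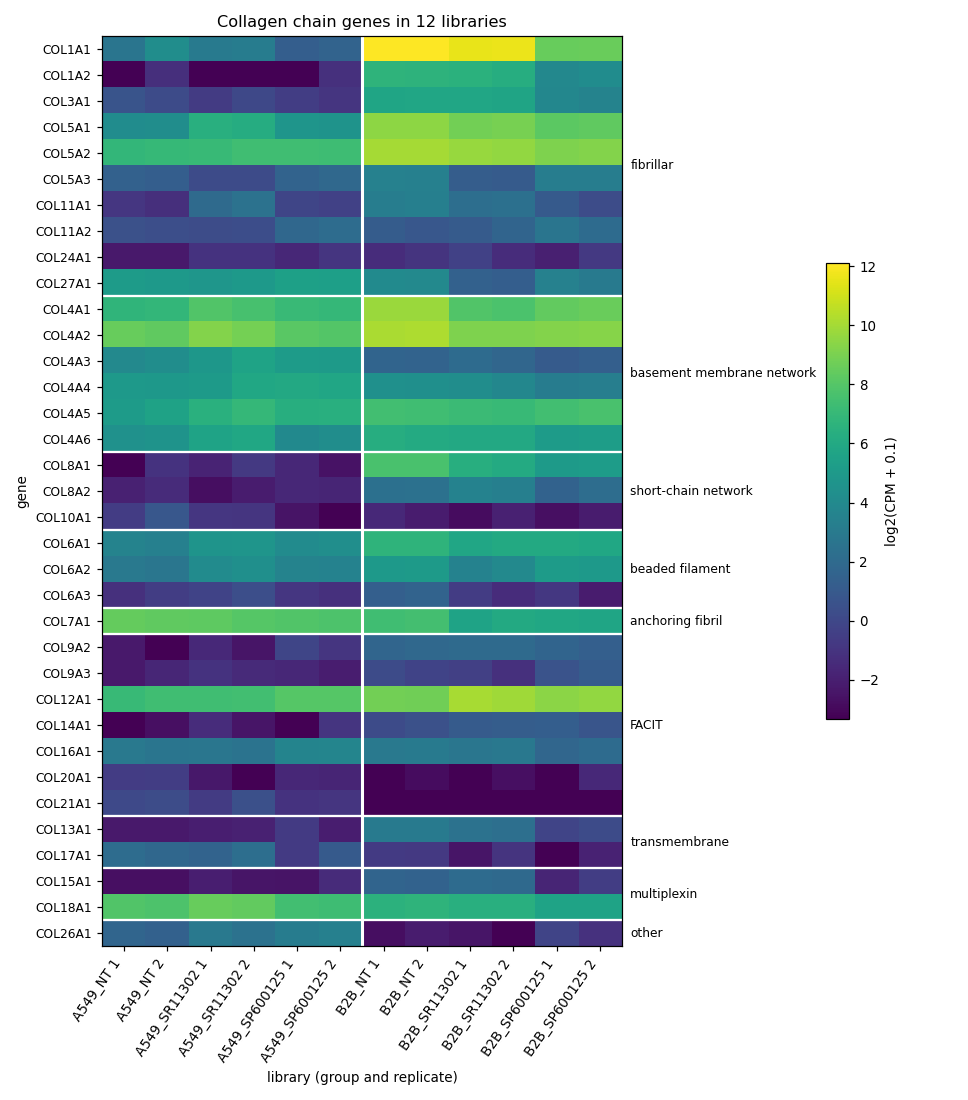
Heat map of log2(CPM + 0.1) of the 35 tested collagen chain genes (vertical axis, grouped by class) in the 12 libraries (horizontal axis, A549 on the left and B2B on the right), on a colour scale from dark for low to yellow for high. COL1A1 is brightest in the untreated and SR11302-treated B2B libraries, and COL4A2, COL7A1 and COL18A1 are among the brightest in A549.

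The 2 lines differed most in how much collagen transcript they held and in which chains made it up. The summed level of the 44 genes was 1525 and 1508 CPM in A549_NT and 9611 and 9727 CPM in B2B_NT. COL1A1, the major chain of type I collagen, took 44.7 and 45.1% of that sum in B2B_NT. Without COL1A1 the sums were 1504 ± 21.1 CPM in A549_NT and 5325 ± 14.6 CPM in B2B_NT (SD, n = 2). With SR11302 the sum was 2224 and 2092 CPM in A549 and 6922 CPM in both B2B libraries. With SP600125 it was 1593 and 1506 CPM in A549 and 3390 and 3632 CPM in B2B, where COL1A1 then made up 10.98 and 10.53%. The type IV, type VII and multiplexin classes together outweighed the fibrillar class in A549_NT, at 566 ± 11.9, 340.2 ± 20.6 and 228 ± 13.7 against 195 ± 13.2 CPM, whereas in B2B_NT the fibrillar class alone held 6289 ± 57.5 CPM.

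**Figure D2:**
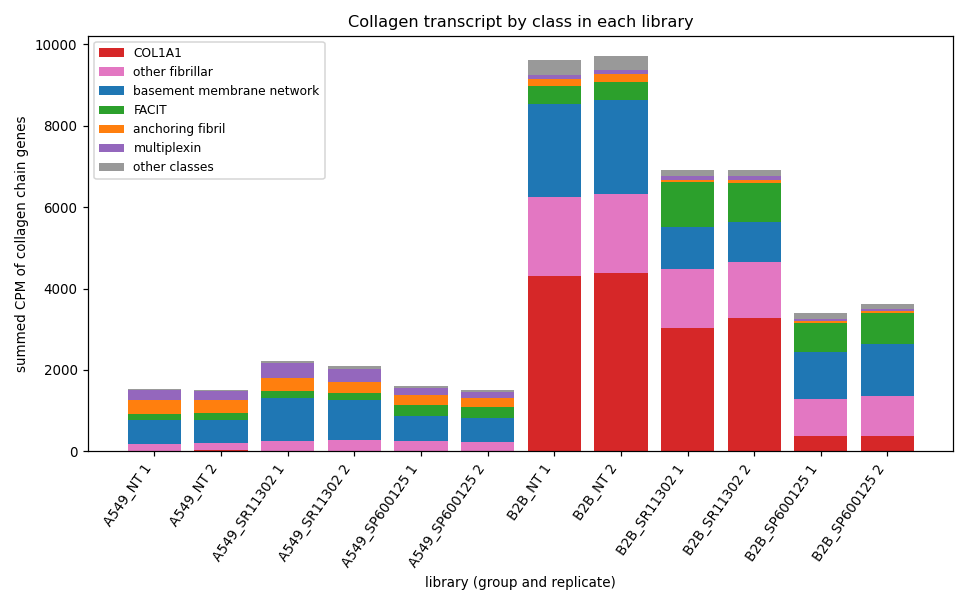
Stacked bars of summed CPM of the collagen chain genes (vertical axis) in each of the 12 libraries (horizontal axis), split into COL1A1, the other fibrillar chains and the other classes. The bars of B2B_NT reach 9611 and 9727 CPM and those of A549_NT 1525 and 1508 CPM, and the COL1A1 segment shrinks to 372 and 382 CPM in B2B_SP600125.

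Per kilobase of exon, the highest collagen levels in A549_NT were those of COL7A1 (30.6 ± 1.85 CPM per kb) and COL18A1 (26.9 ± 1.61 CPM per kb), whose ranges over libraries did not overlap those of COL4A2 (17.6 ± 1.60) and COL5A2 (17.1 ± 0.881), which overlapped each other. COL12A1 (8.01 ± 1.18) and COL4A1 (7.81 ± 0.500) followed and also overlapped. In B2B_NT the order was COL1A1 (482 ± 7.46 CPM per kb), COL5A2 (141 ± 1.56), COL5A1 (64.6 ± 0.250), COL4A1 (59.97 ± 0.875) and COL4A2 (59.7 ± 1.06), the last 2 of which overlapped. COL5A2, a chain of the minor fibrillar collagen V, was therefore among the first 4 in both lines. SP600125 placed COL5A2 first in B2B at 80.1 ± 3.68 CPM per kb, above COL1A1 at 41.9 ± 0.816 and COL12A1 at 38.4 ± 2.74 (SD, n = 2 throughout). These orders hold only for the length of all exons. COL4A2 has 19271 bases of exon but a longest transcript of 6446, against 7319 and 6829 for COL5A2 and 11133 and 9276 for COL7A1. By the longest transcript, COL4A2 would stand above COL7A1 in A549_NT and above COL5A2 in B2B_SP600125.

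To see how the lines differ without a compound, A549_NT was compared with B2B_NT. Of the 35 tested collagen genes, 10 were higher and 22 lower in A549, where 30.4% of all tested genes were higher and 26.5% lower. The median log2 fold change of the collagen genes was -2.05, against 0.05 over all genes. Of the 10 tested fibrillar genes 7 were lower and 1 higher, of the 6 type IV genes 4 were lower and 2 higher, and the 3 tested type VI genes were lower. Among the 19 collagen genes with a mean of at least 5 CPM over all libraries, 13 were lower and 5 higher, against 27.4% and 28.7% of the 11330 genes at that level.

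COL8A1, COL1A2 and COL1A1 differed most in size between the lines. COL1A1 stood at 6.23 and 18.9 CPM in A549_NT and at 4296 and 4391 CPM in B2B_NT, a difference of -8.43 ± 0.37 (adjusted p = 1.48e-10). COL1A2, the partner chain of type I collagen, had 0 and 6 counts in A549_NT and stood at 103 and 102 CPM in B2B_NT (-9.24 ± 0.41). COL8A1, a chain of the short networks under endothelium and in the eye, had 0 and 7 counts against 201 and 200.2 CPM (-10.00 ± 0.34). The A549_NT counts of these 3 genes lay mostly or only in replicate 2. Without that library the difference of COL1A1 was -9.44, and COL1A2 and COL8A1 were at 0 in the remaining one. COL5A1 stood at 18.3 and 18.7 against 719 and 723 CPM (-5.28 ± 0.12, adjusted p = 2.58e-12), COL5A2 at 120.3 and 129 against 1037 and 1021 CPM (-3.04 ± 0.12), and COL3A1, the chain of type III collagen, at 1.501 and 1.06 against 54.2 and 54.7 CPM (-5.41 ± 0.20). In all 3 the groups lay far from overlapping.

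Basement membrane and filament chains of the common kind were also lower in A549. COL4A1 stood at 109 and 119.6 CPM in A549_NT and 870.2 and 888 CPM in B2B_NT (-2.94 ± 0.13), COL4A2 at 361 and 318 against 1137 and 1166 CPM (-1.76 ± 0.12), and COL6A1, a core chain of type VI, at 11.7 and 10.6 against 105 and 106 CPM (-3.24 ± 0.14). COL12A1, a FACIT chain, was at 135 and 167 against 444 and 428 CPM (-1.53 ± 0.12). COL13A1, a membrane-spanning chain, stood at 0.111 and 0.106 against 8.05 and 7.90 CPM (-6.12 ± 0.40). COL14A1, COL15A1 and COL9A2 had 1, 2 and 2 counts over A549_NT against 54, 133 and 153 over B2B_NT, which are ratios of 43.8 (counting interval 7.53 to 1760), 53.9 (14.6 to 450) and 62.0 (16.9 to 517).

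The 10 genes higher in A549 were spread over the classes: COL4A3 and COL4A4 (basement membrane), COL20A1 and COL21A1 (FACIT), COL27A1 (fibrillar), COL10A1 (short-chain), COL7A1 (anchoring fibril), COL17A1 (transmembrane), COL18A1 (multiplexin) and COL26A1. Some rest on few counts. COL10A1 had 10 and 33 counts in A549_NT against 5 and 3 in B2B_NT, and did not pass the filter on low counts without A549_NT replicate 2. COL20A1 had 21 counts over A549_NT against 1 over B2B_NT, a ratio of 25.9 (counting interval 4.17 to 1072). COL18A1, whose C-terminal fragment is endostatin, stood at 237 and 218 CPM in A549_NT and 98.0 and 103 CPM in B2B_NT (1.18 ± 0.10, adjusted p = 1.23e-07), and shares 18.5% of its exon bases with SLC19A1. COL7A1, the chain of anchoring fibrils, was at 355 and 326 against 165 and 180.4 CPM (0.98 ± 0.14). COL27A1, a late-described fibrillar chain, was at 34.8 and 32.0 against 16.7 and 15.4 CPM (1.06 ± 0.15), and COL4A3, one of the chains of the kidney and alveolar basement membrane, at 15.3 and 18.5 against 3.02 and 2.89 CPM (2.51 ± 0.25). COL17A1, a hemidesmosome protein, was at 4.22 and 3.50 against 0.527 and 0.489 CPM (2.91 ± 0.52). COL21A1 had 38 counts over A549_NT and none over B2B_NT, so it was at least 15.6-fold higher, taking 3 counts over the group as the floor. COL4A4, at 30.6 and 29.9 against 21.6 and 20.6 CPM (0.52 ± 0.21), lost its call without any 1 of the 4 untreated libraries (0.48 to 0.55) and with library size alone (0.40). COL16A1, COL11A2 and COL24A1 were not called.

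**Figure D3:**
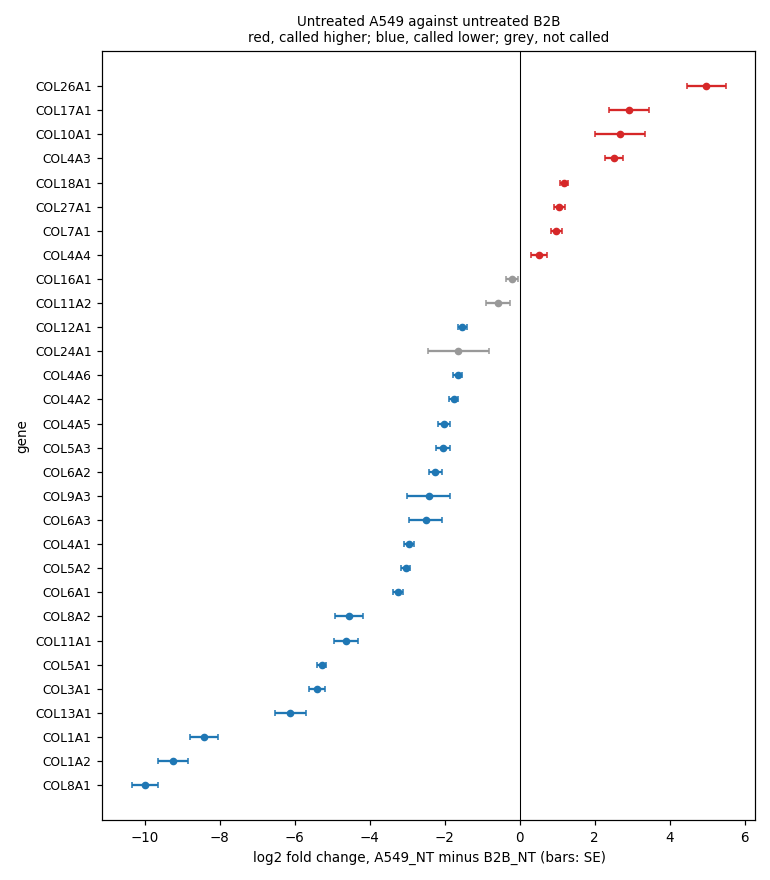
Log2 fold change of A549_NT minus B2B_NT (horizontal axis, bars SE) for 30 tested collagen chain genes (vertical axis), coloured by call. The 5 genes with 3 counts or fewer over either group are left out. COL8A1, COL1A2 and COL1A1 lie between -10.00 and -8.43, and COL4A3, COL18A1, COL27A1 and COL7A1 lie between 0.98 and 2.51.

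Each inhibitor was then compared with no treatment in each line. In a line the comparisons share the untreated libraries, which also enter the comparison of lines, and the 2 compounds were used at different concentrations, so their values stand side by side here and are not compared with each other.

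With SR11302, the collagen genes called in A549 were mostly higher and those called in B2B mostly lower. In A549, 12 of 35 were higher and 2 lower, where 14.8% of all tested genes were higher and 13.0% lower, and the median was 0.64 against 0.02 over all genes. In B2B, 2 were higher and 12 lower, where 11.4% and 11.1% of all genes were, and the median was -0.37 against 0.01. Among the 19 genes with a mean of at least 5 CPM, 10 rose and none fell in A549, and 1 rose and 8 fell in B2B (14.6% and 11.6%, and 11.6% and 9.88%, of all genes at that level). The interaction test, which subtracts the change in B2B from the change in A549, called 15 collagen genes higher and 1 lower, where it called 8.34% of all genes higher and 7.41% lower. COL4A1, COL4A2, COL5A1, COL6A1, COL6A2 and COL11A1 were called higher in A549 and lower in B2B, and no collagen gene was called the other way round. The share of all tested genes called in opposite directions is not given, so this list has no background beside it. The epithelial sums, mostly KRT8 and KRT18, were lower in both lines with SR11302, while CDH1 was higher in B2B, as given above. The part of these markers was not tested.

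All 6 type IV genes rose in A549 with SR11302. COL4A1 went from 109 and 119.6 CPM to 245 and 197 CPM in A549 (0.95 ± 0.13, adjusted p = 7.67e-05), and from 870.2 and 888 CPM to 244 and 216 CPM in B2B (-1.93 ± 0.13, adjusted p = 3.41e-07). The 2 lines, far apart without treatment, thus had overlapping COL4A1 levels with SR11302. The difference between these effects was 2.88 ± 0.18. COL4A2 rose to 608 and 478 CPM in A549 (0.68 ± 0.12) and fell to 546 and 553 CPM in B2B (-1.07 ± 0.12). Its rise in A549 went under the fold minimum without A549_SR11302 replicate 1 (0.50). COL4A5 and COL4A6, whose chains go together into the basement membranes of bronchi and smooth muscle, rose in A549 to 88.3 and 126 CPM from 35.9 and 48.1 CPM (1.35 ± 0.17) and to 49.9 and 58.4 CPM from 22.4 and 24.1 CPM (1.22 ± 0.13), and were at -0.26 ± 0.16 and -0.20 ± 0.12 in B2B, where neither was called. COL4A3 rose in A549 to 28.2 and 48.6 CPM (1.19 ± 0.21). COL4A4, at 33.8 and 57.8 CPM with SR11302 against 30.6 and 29.9 CPM, was called at 0.60 ± 0.20 and lost the call without A549_SR11302 replicate 2 (0.19) or either A549_NT library (0.59 and 0.62).

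Among the fibrillar genes, those called with SR11302 were minor chains. COL5A1 went from 18.3 and 18.7 CPM to 83.3 and 75.6 CPM in A549 (2.10 ± 0.11, adjusted p = 1.53e-08), and from 719 and 723 CPM to 455 and 481 CPM in B2B (-0.62 ± 0.10). COL5A2, its partner, was not called in either line (0.26 ± 0.11 and -0.35 ± 0.11). COL11A1, a chain of cartilage fibrils, went from 0.445 and 0.319 CPM to 3.98 and 5.56 CPM in A549 (3.63 ± 0.35) and from 9.00 and 10.1 CPM to 4.56 and 5.13 CPM in B2B (-0.99 ± 0.22, not called without B2B_NT replicate 2). COL27A1 fell in B2B from 16.7 and 15.4 CPM to 2.63 and 2.37 CPM (-2.67 ± 0.18, adjusted p = 4.60e-07) and was at -0.19 ± 0.14 in A549. COL5A3 fell in both lines, from 2.72 and 2.39 to 1.07 and 1.05 CPM in A549 (-1.27 ± 0.24) and from 10.9 and 10.4 to 2.26 and 2.08 CPM in B2B (-2.28 ± 0.19). The major chains were not called: COL1A1 was at 3031 and 3267 CPM in B2B_SR11302 (-0.46 ± 0.27, adjusted p = 0.208), COL1A2 at 93.8 and 77.4 CPM (-0.26 ± 0.21) and COL3A1 at 55.3 and 50.9 CPM (-0.03 ± 0.14). In A549 the COL1A1 value of -0.62 ± 0.32 was 0.40 without A549_NT replicate 2, neither of them called, and was called at -1.20 without A549_NT replicate 1.

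In the other classes COL6A1 went from 11.7 and 10.6 CPM to 25.01 and 25.90 CPM in A549 (1.19 ± 0.14) and from 105 and 106 CPM to 55.3 and 67.2 CPM in B2B (-0.79 ± 0.12), while COL6A2 went from 7.39 and 6.48 to 17.5 and 20.3 CPM (1.45 ± 0.17) and from 32.3 and 33.6 to 11.1 and 15.1 CPM (-1.34 ± 0.16). COL18A1 rose in A549 to 373 and 336 CPM (0.64 ± 0.10) and was at -0.22 ± 0.10 in B2B. COL7A1 fell in B2B to 48.6 and 66.5 CPM (-1.59 ± 0.14) and was at -0.24 ± 0.14 in A549. COL8A1 fell in B2B to 81.2 and 69.0 CPM (-1.42 ± 0.18) while COL8A2, the other type VIII chain, rose from 5.08 and 5.33 to 11.4 and 10.2 CPM (1.05 ± 0.21). COL12A1, the other gene called higher in B2B, rose there from 444 and 428 CPM to 1088 and 938 CPM (1.22 ± 0.12, adjusted p = 9.09e-06) and was at 0.14 ± 0.12 in A549, a difference between lines of -1.08 ± 0.17 (adjusted p = 6.89e-04). COL20A1, called lower in A549, had 21 counts over A549_NT and 2 over A549_SR11302, a ratio of 12.7 (3.10 to 112), and was not called by DESeq2. COL13A1 (-0.61 ± 0.22 in B2B) lost its call without any 1 of the B2B_NT and B2B_SR11302 libraries, and COL26A1 (1.13 ± 0.27 in A549) without A549_NT replicate 2.

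With SP600125, 19 collagen genes were lower in B2B, and those called in A549 went in both directions. In B2B, 4 of 35 were higher and 19 lower, where 21.2% of all tested genes were higher and 22.6% lower, and the median was -0.92 against 0.01. In A549, 10 were higher and 5 lower, where 23.9% and 25.0% of all genes were, so these counts lie near the background, and the median was 0.35 against 0.02. Beside these changes with SP600125, the smooth muscle markers MYH11, ACTA2 and DES summed to 44.5 to 49.9 CPM in A549 against 5.84 to 6.27 in A549_NT. In B2B they summed to 15.3 to 18.4 CPM against 7.29 to 7.85 in B2B_NT. The rise was that of ACTA2, from a mean of 3.39 to 46.1 CPM in A549 and from 3.59 to 14.9 CPM in B2B. MYH11 was lower in both lines, at 1.02 against 2.57 CPM in A549 and 1.90 against 3.93 CPM in B2B. DES was at most 0.251 CPM in any library. Endothelial markers summed to 13.9 to 15.0 against 0.222 to 0.265 CPM in A549 and 6.76 to 10.04 against 0.774 to 0.814 CPM in B2B. The epithelial sums, mostly KRT8 and KRT18, and the B2B basal sums were lower, while CDH1 was higher in both lines and EPCAM in B2B, as given above. Their part in the collagen changes was not tested. Among the 19 genes with a mean of at least 5 CPM, 15 fell and 1 rose in B2B, against 21.6% and 22.9% of all genes at that level. The interaction, the change in A549 minus that in B2B, called 19 collagen genes higher and none lower, where it called 12.1% and 13.1% of all genes. DESeq2 called 20 higher and 0 lower, and at an unadjusted p under 0.05 in edgeR 0 were lower.

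Type I and type III chains fell steeply in B2B with SP600125. COL1A1 went from 4296 and 4391 CPM to 372 and 382 CPM (-3.53 ± 0.29, adjusted p = 5.63e-07), COL1A2 from 103 and 102 CPM to 14.6 and 17.9 CPM (-2.66 ± 0.23), and COL3A1 from 54.2 and 54.7 CPM to 13.7 and 11.7 CPM (-2.10 ± 0.15). COL11A1 (-2.64 ± 0.26, 1.92 and 1.10 CPM with the compound), COL5A1 (-1.21 ± 0.10, 295 and 328 CPM) and COL5A2 (-0.81 ± 0.11, 567 and 605 CPM) fell by less or from lower levels. In A549, COL1A1 went from 6.23 and 18.9 CPM to 2.31 and 2.96 CPM, called at -2.25 ± 0.40 and at -1.23 without A549_NT replicate 2. COL3A1 (-1.34 ± 0.38) was called there but not without A549_NT replicate 1 or A549_SP600125 replicate 2 (-1.07 and -1.09). COL11A2, the partner of COL11A1 in cartilage, rose in both lines, from 1.33 and 1.22 to 3.43 and 4.34 CPM in A549 (1.60 ± 0.31) and from 2.16 and 1.71 to 6.19 and 4.08 CPM in B2B (1.42 ± 0.27).

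Of the type IV genes 4 of 6 fell in B2B with SP600125 and 3 of 6 rose in A549. COL4A1 fell in B2B to 336 and 384 CPM (-1.29 ± 0.12) and was at 137 and 121 CPM in A549 (0.18 ± 0.13, not called). COL4A2 fell in B2B to 599 and 619 CPM (-0.92 ± 0.12) and was at 285 and 256 CPM in A549 (-0.33 ± 0.12, not called). COL4A4 rose in A549 to 62.2 and 56.9 CPM (0.98 ± 0.20) and fell in B2B from 21.6 and 20.6 to 8.68 and 9.68 CPM (-1.20 ± 0.22), a difference of 2.18 ± 0.30. COL4A3, at 35.8 and 33.8 CPM, and COL4A5, at 82.3 and 84.1 CPM, rose in A549 (1.04 ± 0.21 and 0.99 ± 0.17) and were not called in B2B. COL6A1 rose in A549 to 17.1 and 19.3 CPM (0.71 ± 0.14) and fell in B2B to 66.9 and 58.3 CPM (-0.75 ± 0.12). COL16A1, a FACIT chain, rose in A549 from 7.28 and 6.37 to 12.2 and 12.7 CPM (0.87 ± 0.17) and fell in B2B from 7.57 and 8.22 to 3.33 and 4.02 CPM (-1.11 ± 0.18).

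COL12A1 rose with SP600125 in both lines, to 263 and 258 CPM in A549 (0.79 ± 0.12) and to 687 and 761 CPM in B2B (0.73 ± 0.12), and the difference between these effects was 0.06 ± 0.17 (adjusted p = 0.851). It was thus the most abundant collagen transcript by count in both B2B_SP600125 libraries, at 20.3 and 20.9% of the collagen sum. COL26A1 rose in both lines as well (1.69 ± 0.27 in A549, from 3.22 and 2.71 to 8.72 and 10.4 CPM, and 2.65 ± 0.72 in B2B, the latter from 0.048 and 0.12 CPM and not called without B2B_SP600125 replicate 1). COL18A1 fell in B2B to 49.6 and 50.0 CPM (-1.01 ± 0.10) and was at 173 and 160 CPM in A549 (-0.45 ± 0.10, under the fold minimum). COL7A1 fell in both, to 241 and 220.4 CPM in A549 (-0.56 ± 0.14) and 58.3 and 53.7 CPM in B2B (-1.62 ± 0.14). Its fall in A549 went under the fold minimum without A549_NT replicate 1 or A549_SP600125 replicate 2 (-0.49 in each case) and with library size alone (-0.48). COL8A1 fell in B2B to 34.4 and 36.4 CPM (-2.50 ± 0.19), COL13A1 to 0.780 and 1.03 CPM (-3.14 ± 0.28), and COL15A1 to 0.208 and 0.609 CPM (-2.87 ± 0.41). COL10A1, a chain of growth plate cartilage, had 43 counts over A549_NT and 1 over A549_SP600125, a ratio of 32.6 (5.55 to 1318), and 33 of the 43 were in A549_NT replicate 2. Without that library COL10A1 did not pass the filter on low counts and has no test.

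The collagen genes were rich in G and C, with a median GC content of 55.2% of the longest transcript against 48.2% over all tested genes with a value, and an offset for GC content in each library moved the SP600125 results. With it, 17 genes were higher and 5 lower in A549, COL7A1 turned from -0.56 to 0.51, COL18A1 from -0.45 to 0.81 and COL4A2 from -0.33 to 0.51. COL5A3 (1.36), COL5A1 (1.13), COL27A1 (1.13) and COL4A1 (0.54) were newly called higher there, and COL21A1 (-1.53) newly lower. The shares of all genes called with the offset are not given, so its counts in either line have no background beside them. In B2B, 5 genes were higher and 16 lower with it, and COL6A2 turned from -0.01 to a called rise of 0.66. There the falls of COL18A1 (-0.29), COL27A1 (-0.37) and COL6A1 (-0.24) lost their calls, while COL1A1 (-3.12), COL1A2 (-2.74), COL8A1 (-2.61), COL3A1 (-2.11) and COL4A1 (-1.21) kept theirs.

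**Figure D4:**
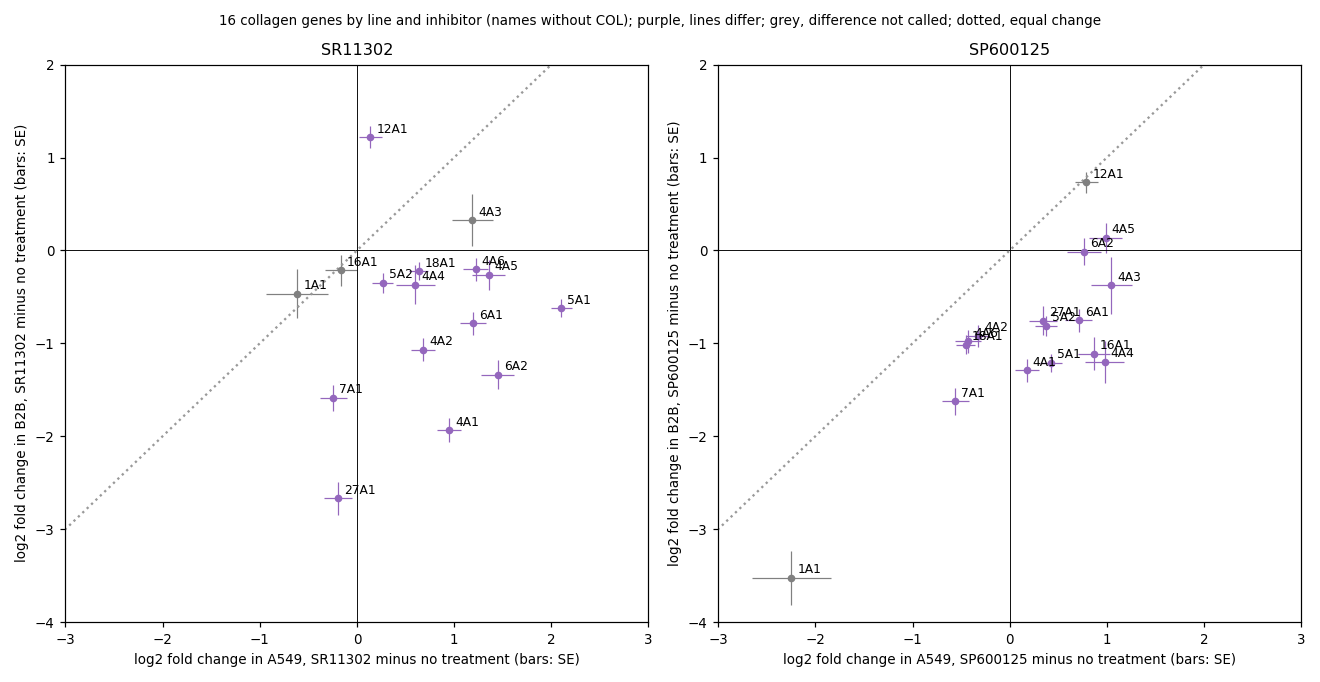
Log2 fold change in A549 (horizontal axis) against that in B2B (vertical axis) for SR11302 (left) and SP600125 (right), bars SE, for the 16 collagen genes with a mean of at least 5 CPM over all libraries and at least 1 CPM in each. Most points lie below the dotted line of equal change, with COL5A1 at 2.10 and -0.62 for SR11302, and COL12A1 lies above it for SR11302 and close to it for SP600125.

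Type IV chains are encoded by 3 pairs of genes that lie head to head and are read in opposite directions. On build hg38 (GENCODE v44), COL4A1 (chromosome 13, 110148963 to 110307157, minus strand) lies beside COL4A2 (110305812 to 110513209, plus strand), COL4A4 (chromosome 2, 227002714 to 227164453, minus) beside COL4A3 (227164624 to 227314792, plus), and COL4A6 (chromosome X, 108155607 to 108439497, minus) beside COL4A5 (108439838 to 108697545, plus). The RefSeq starts of the partners lie 127, 419 and 380 bases apart, so the windows from 250 bases before to 50 bases after the start of the plus-strand gene hold all or part of what lies between the partners. The 3 windows are shown because the ratio of the paired genes differed between groups. They are from RefSeq on GRCh38.p14, plus strand, at chr13:110307034-110307333, chr2:227164374-227164673 and chrX:108439588-108439887, and capitals mark the letters CCAAT and GGGCGG on either strand.
COL4A2: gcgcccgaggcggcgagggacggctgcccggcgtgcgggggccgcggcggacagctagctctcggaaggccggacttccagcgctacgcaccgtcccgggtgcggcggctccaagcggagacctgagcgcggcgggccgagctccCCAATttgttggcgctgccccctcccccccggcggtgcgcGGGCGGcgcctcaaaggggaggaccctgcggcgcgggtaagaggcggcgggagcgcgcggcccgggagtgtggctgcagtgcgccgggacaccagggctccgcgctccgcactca
COL4A3: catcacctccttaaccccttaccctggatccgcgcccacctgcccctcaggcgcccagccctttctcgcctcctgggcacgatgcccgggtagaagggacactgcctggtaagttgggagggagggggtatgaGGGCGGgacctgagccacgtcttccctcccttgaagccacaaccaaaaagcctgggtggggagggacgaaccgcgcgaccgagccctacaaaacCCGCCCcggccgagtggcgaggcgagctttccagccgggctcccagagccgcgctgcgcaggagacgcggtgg
COL4A5: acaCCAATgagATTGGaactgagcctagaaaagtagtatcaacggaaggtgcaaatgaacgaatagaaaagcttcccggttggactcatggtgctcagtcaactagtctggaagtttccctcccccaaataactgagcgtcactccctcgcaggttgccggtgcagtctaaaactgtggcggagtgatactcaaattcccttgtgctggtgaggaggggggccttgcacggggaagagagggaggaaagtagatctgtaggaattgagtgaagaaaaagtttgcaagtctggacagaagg
The window of COL4A2 was 77.7% G and C and held 1 match to each motif, that of COL4A3 was 67.7% and held 2 matches to GGGCGG and none to CCAAT, and that of COL4A5 was 49.3% and held 2 matches to CCAAT and none to GGGCGG.

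The ratio of partner chains, in counts per kb of exon, differed between lines and treatments. COL4A1 to COL4A2 stood at 1.01 and 1.00 in B2B_NT, 0.586 and 0.514 in B2B_SR11302 and 0.738 and 0.815 in B2B_SP600125, so all 4 treated B2B libraries lay below the untreated ones. The ratio itself depends on the length used: with the longest transcript in place of all exons it was 0.754 and 0.751 in B2B_NT. In A549 it was 0.397 and 0.495 without treatment, 0.529 and 0.542 with SR11302 and 0.633 and 0.622 with SP600125, so there the treated libraries lay above. The ratios carry no offset for GC content, which was 55.2% for COL4A1 and 61.8% for COL4A2. With that offset COL4A1 and COL4A2 changed alike in A549 with SP600125 (0.54 and 0.51, against 0.18 and -0.33 without it). In B2B with SP600125 they were at -1.21 and -0.50 with it, against -1.29 and -0.92. COL4A5 to COL4A6 was 1.25 and 1.56 in A549_NT and 1.78 and 1.85 in B2B_NT, and with SP600125 it was 4.09 and 3.51 in A549 and 3.77 and 4.08 in B2B. With SR11302 it was 1.38 and 1.69 in A549 and 1.83 and 1.65 in B2B, overlapping the untreated libraries in both lines. COL4A3 to COL4A4 was 0.481 and 0.595 in A549_NT and 0.135 in both B2B_NT libraries, against 0.803 and 0.809 with SR11302 in A549 and 0.210 and 0.228 in B2B. With SP600125 it was 0.554 and 0.573 in A549 and 0.230 and 0.248 in B2B. With 2 libraries a group no exact test of these ratios can go below p = 0.333, so they are given as values.

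The ratio of other partners differed too. COL1A1 to COL1A2, whose chains go 2 to 1 into the type I molecule, was 50.0 and 51.6 per kb in B2B_NT, 38.8 and 50.7 in B2B_SR11302 and 30.7 and 25.7 in B2B_SP600125. With the GC offset the changes of COL1A1 and COL1A2 in B2B with SP600125 lay closer together, at -3.12 and -2.74 against -3.53 and -2.66 without it. COL5A1 to COL5A2 was 0.0997 and 0.0947 in A549_NT, 0.401 and 0.303 in A549_SR11302 and 0.105 and 0.0963 in A549_SP600125, and lay between 0.341 and 0.464 in the 6 B2B libraries. GC content was 60.2% for COL5A1 and 48.3% for COL5A2. With the GC offset their changes with SP600125 were 1.13 and 0.37 in A549, against 0.43 and 0.37 without it. In B2B they were -0.88 and -0.91 with it, against -1.21 and -0.81. COL6A1 to COL6A2 was 3.14 and 3.03 in B2B_NT, 4.78 and 4.29 in B2B_SR11302 and 1.87 and 1.83 in B2B_SP600125, against 1.23 to 1.62 in the 6 A549 libraries. COL8A1 to COL8A2 went from 19.7 and 18.6 in B2B_NT to 3.54 and 3.36 with SR11302 and 6.19 and 4.12 with SP600125. COL6A3, the longest of the common type VI chains, had at most 70 counts in any library and stayed under 0.0142 of COL6A1 per kb.

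**Figure D5:**
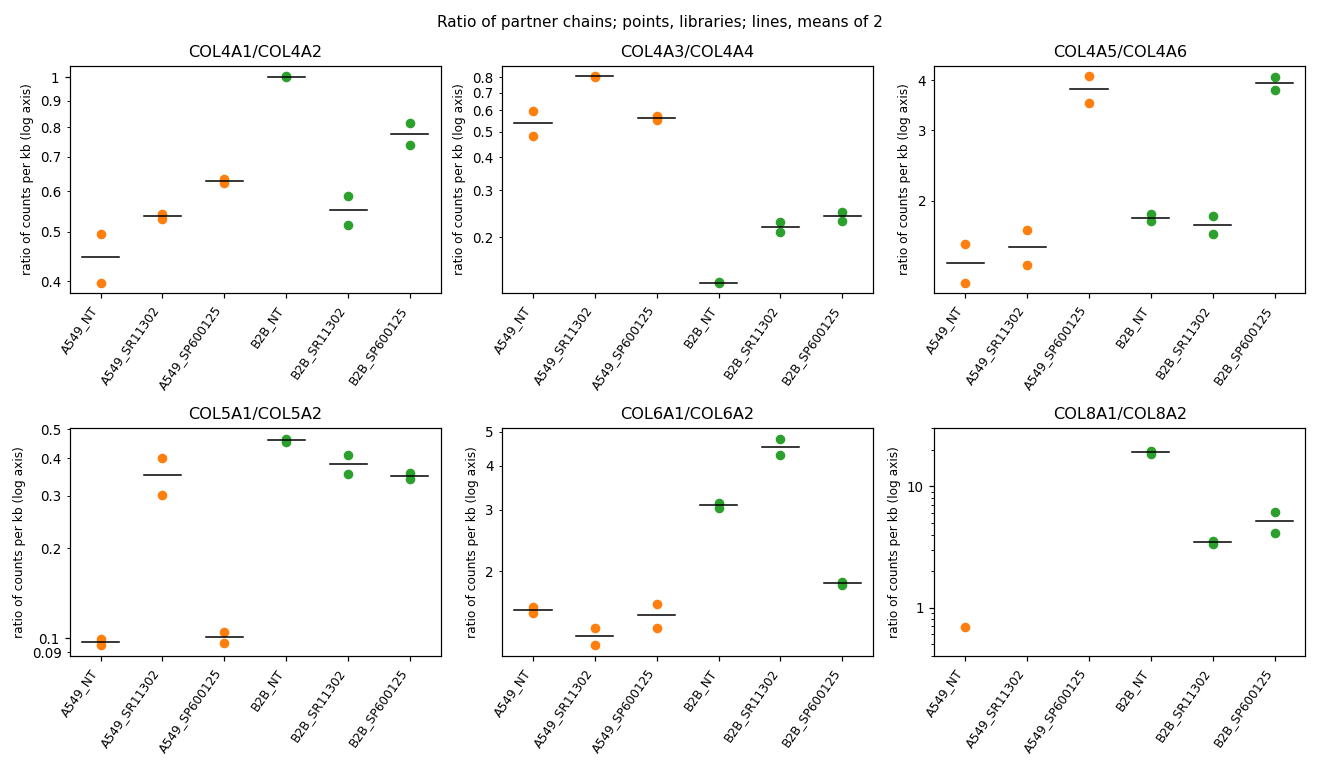
Ratio of partner chains in counts per kb of exon (vertical axes, logarithmic) in the 6 groups (horizontal axes), with points for libraries and lines for means of 2, in A549 (orange) and B2B (green). The ratio of COL4A5 to COL4A6 lies between 3.51 and 4.09 in the 4 SP600125 libraries and between 1.25 and 1.85 in the other 8. For COL8A1 to COL8A2 most A549 libraries had too few counts for a ratio.

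The promoter windows of the collagen genes were searched for the AP-1 site written as TGANTCA, which reads the same on both strands. Windows were found for 32 of the 44 genes, leaving out COL1A1, COL1A2, COL2A1, COL3A1, COL5A2, COL6A1, COL6A5, COL8A1, COL9A3, COL14A1, COL20A1 and COL22A1. It was in 1 of the 32, COL10A1, with 2 matches, against 9.37% of the 27305 genes in the table. GGGCGG was in 21 of 32 (48.3% of all genes) and CCAAT in 12 of 32 (39.7% of all genes), on either strand. A match is a string of letters and says nothing of binding, and the search did not reach beyond these windows.

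The enzymes and partners that make, cross-link and degrade collagen were followed in the same fit, with a list of 53 genes of which 49 were tested. In A549_NT against B2B_NT 9 were higher and 28 lower (30.4% and 26.5% of all tested genes). With SR11302, 16 were higher and 6 lower in A549 (14.8% and 13.0%) and 3 higher and 11 lower in B2B (11.4% and 11.1%). With SP600125, 10 were higher and 9 lower in A549 (23.9% and 25.0%), which lies near the background. In B2B with SP600125, 9 were higher and 23 lower (21.2% and 22.6%). The interactions called 10 higher and 2 lower for SR11302 (8.34% and 7.41%) and 17 higher and 3 lower for SP600125 (12.1% and 13.1%). The counts by class below stand beside the same shares and rest on few genes.

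Of 19 chaperones and hydroxylases, 5 were higher and 3 lower in A549 with SR11302, 0 and 5 in B2B with SR11302, 3 and 5 in A549 with SP600125, and 3 and 9 in B2B with SP600125. P4HA2, a subunit of prolyl 4-hydroxylase, stood at 30.8 CPM in A549_NT and 135 CPM in B2B_NT (-2.13 ± 0.11). With SR11302 it rose in A549 (0.61 ± 0.11) and fell in B2B (-0.95 ± 0.11), and with SP600125 it fell in B2B (-1.01 ± 0.11) and was at 0.42 ± 0.11 in A549, under the fold minimum. PLOD2, a lysyl hydroxylase, rose in A549 with SR11302 (0.54 ± 0.18, not called without both untreated second libraries, at 0.68) and fell in B2B with SR11302 (-0.95 ± 0.18) and SP600125 (-1.33 ± 0.18). P4HA1 fell in B2B with SR11302 (-0.72 ± 0.15) and was not called in the other inhibitor comparisons with all libraries, but was with SP600125 in B2B without B2B_NT replicate 2 (P4HA1, -0.53). SERPINH1, the collagen chaperone HSP47, fell in B2B with SR11302 (-0.52 ± 0.10, and -0.48 and under the fold minimum without B2B_NT replicate 2) and SP600125 (-0.78 ± 0.11) and in A549 with SP600125 (-0.80 ± 0.11), and was at -0.37 ± 0.11 in A549 with SR11302. COLGALT2, a collagen galactosyltransferase, rose in A549 with both compounds, from 0.188 CPM to 1.27 and 1.44 CPM (2.69 ± 0.51 and 2.87 ± 0.53), from 7 counts over A549_NT. Without A549_NT replicate 2 the values of COLGALT2 were 3.43 and 3.61.

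Of the 6 cross-linking genes, 2 were higher and 1 lower in A549 with SR11302, 3 and 2 in A549 with SP600125, 1 and 1 in B2B with SR11302, and 1 and 4 in B2B with SP600125. LOXL2 (0.97 ± 0.11 and 0.68 ± 0.11) and PXDN (0.78 ± 0.15 and 0.87 ± 0.15) rose in A549 with SR11302 and SP600125, and LOXL4 (1.93 ± 0.28) rose there with SP600125. LOX, the lysyl oxidase that starts the cross-links of fibrils, fell in all 4 inhibitor comparisons, by 0.99 ± 0.21 with SR11302 and 1.58 ± 0.26 with SP600125 in A549 and by 0.57 ± 0.12 and 2.12 ± 0.13 in B2B on the log2 scale. Its level was 3.44 CPM in A549_NT and 220 CPM in B2B_NT, and its fall in A549 with SR11302 lost its call without both untreated second libraries (-0.80). LOXL1 fell in B2B with SP600125 from 150.5 to 22.4 CPM (-2.75 ± 0.21), and PCOLCE2, which enhances cleavage of procollagen, from 2.97 to 0.200 CPM (-3.88 ± 0.33). SPARC, a collagen-binding matrix protein, stood at 3.70 CPM in A549_NT and 2416 CPM in B2B_NT (-9.33 ± 0.59), rose in A549 with SR11302 to 31.9 CPM (3.09 ± 0.51) and fell in B2B with SP600125 to 1074 CPM (-1.17 ± 0.39). SPARC had 6 and 133 counts in A549_NT, and without replicate 2 the difference between lines was -12.80 and the rises in A549 were 6.55 with SR11302 and 4.67 with SP600125, the latter not called with both libraries (1.20 ± 0.57). Its fall in B2B lost its call without B2B_NT replicate 2 (-1.15). ITGA11, a receptor subunit for fibrillar collagen, rose in A549 (2.47 ± 0.42) and fell in B2B (-1.63 ± 0.30) with SR11302. MMP1, interstitial collagenase, rose with SP600125 in both lines, from 1 and 1 counts to 167 and 160 counts in A549 and from 8 and 3 counts to 142 and 114 counts in B2B, and was not called with SR11302.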

How the data were processed

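Polyadenylated RNA of A549 and B2B cells was sequenced in 12 libraries. Per the submitters' processing notes the authors used STAR 2.7.10a, HTSeq 1.99.2 and build hg38, and deposited whole-number counts of reads per gene symbol for each library. Neither annotation version nor strand setting was given, so reads of a gene and an overlapping antisense gene may not be told apart. Library totals of 13969766 to 24917854 gene counts set the precision, and counting intervals and floors cover counting error only.

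Rows naming no gene (14.6 to 25.9% of tallied reads in no gene) were left out. All 12 libraries were fitted together in 6 groups (6 residual degrees of freedom) with edgeR 4.0.16 in R 4.3.3: filterByExpr, TMM scaling and the quasi-likelihood test with Benjamini-Hochberg adjustment over 16373 genes, in 5 group comparisons and 2 interactions. SE is the log2 fold change over the square root of F. Counting intervals are at the 95% level. The fit was tested on simulated data. Exon lengths came from GENCODE v44, in which 24291 of 26485 symbols were matched, and promoters from RefSeq.

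In each comparison the text gives, with values per library, up to 6 called members per direction of largest log2 fold change whose higher group averaged 5 CPM or more, plus COL1A1, COL1A2, COL4A1, COL4A2, COL5A1, COL5A2, COL6A1, COL12A1 and COL18A1, and any other tested member may be named. Of the synthesis list up to 4 called genes per comparison may be named, plus LOX, P4HA1, P4HA2, PLOD2, SERPINH1 and SPARC. Others named were chosen after their values were seen. The members and lists were chosen with earlier results of these data known. Alternatives were DESeq2 1.42.0, other scaling, no filter, leaving out libraries, a replicate block, a GC offset (loess span 0.4) and the compared groups alone.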

Additional observations from a re-analysis of the deposited data

Results flagged for a closer look

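The effect of a compound in A549 minus its effect in B2B was tested for 35 collagen genes with each compound by edgeR's interaction term, and 16 passed with SR11302 and 19 with SP600125. Of all tested genes, 8.34% were called higher and 7.41% lower with SR11302, and 12.1% and 13.1% with SP600125. Values are log2 differences between changes. Positive ones mean that the gene rose more, or fell less, in A549 than in B2B, and not that its level was higher in A549. With SR11302 they were COL11A1 (4.62), COL6A3 (3.67), COL4A1 (2.88), COL6A2 (2.79), COL5A1 (2.73), COL27A1 (2.48), COL6A1 (1.98), COL4A2 (1.74), COL4A5 (1.62), COL4A6 (1.42), COL7A1 (1.34), COL5A3 (1.01), COL4A4 (0.97), COL18A1 (0.86), COL5A2 (0.62) and COL12A1 (-1.08). With SP600125 they were COL13A1 (4.66), COL15A1 (4.48), COL9A2 (3.64), COL11A1 (3.61), COL6A3 (2.86), COL4A4 (2.18), COL16A1 (1.98), COL5A1 (1.64), COL4A1 (1.46), COL6A1 (1.46), COL4A3 (1.42), COL5A2 (1.19), COL27A1 (1.10), COL7A1 (1.06), COL4A5 (0.85), COL6A2 (0.77), COL4A2 (0.59), COL18A1 (0.56) and COL4A6 (0.55). COL13A1, COL15A1 and COL9A2 rest on 4, 2 and 2 counts over A549_NT and 9, 5 and 17 over A549_SP600125, and their SEs were 0.83, 1.20 and 0.90. Leaving out each of 8 libraries in turn, COL13A1 lost its call in 1 case (3.47 to 5.34 over the 8), COL15A1 in 1 (3.29 to 5.39) and COL9A2 in 2 (2.68 to 6.88). With SP600125, COL4A6 lost its call in 7, COL6A2 in 6, COL4A2 and COL6A3 in 5, COL4A5 in 4, COL18A1 in 2 and COL4A3 in 1. With SR11302, COL5A3 lost its call in all 8 (0.92 to 1.11), COL4A4 in 6 (0.57 to 1.30) and COL5A2 in 3 (0.52 to 0.74). No explanation of these differences was tested. Leaving out 1 library at a time gave 12 to 16 higher for SR11302 and 13 to 18 for SP600125.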

How the results depend on the processing

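COL7A1 in A549 with SP600125 turned to 0.51 with the GC offset and 0.51 with the replicate block and GC offset together. COL18A1 there, not called with all libraries, was called at -0.51 without A549_NT replicate 2 and without A549_SP600125 replicate 1, and at 0.81 with the GC offset. The SR11302 interaction of COL1A1, also not called, was called at -0.73 without A549_NT replicate 1 and at 0.86 without A549_NT replicate 2. Of the counts of called genes, those lower in A549 with SR11302 (2) were 4 with no filter on low counts, 4 without A549_NT replicate 1, 1 without A549_NT replicate 2 and 1 without both untreated second libraries. The interaction of SR11302 (1 lower) was 2 with no filter and 2 without A549_NT replicate 1. Genes lower in A549 with SP600125 (5) were 2 without A549_NT replicate 1, and those higher (10) were 17 with the GC offset, alone or with the block. The cause was not tested. Shares of all genes called are given only for the fit to all libraries without these alternatives.

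Leaving out 1 library at a time, with the lone library assumed to vary like the other groups, gave 7 to 9 higher and 22 lower between the untreated lines, 11 to 12 higher and 1 to 4 lower in A549 with SR11302, 10 to 11 higher and 2 to 5 lower in A549 with SP600125, 2 higher and 10 to 11 lower in B2B with SR11302, and 3 higher and 19 to 21 lower in B2B with SP600125. The interactions gave 12 to 16 higher and 1 to 2 lower for SR11302 and 13 to 18 higher and 0 lower for SP600125.

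The labels give same-numbered libraries only a shared number. Their deviations correlated at -0.26 to 0.24, which does not settle whether they were handled together. The replicate block left 241 of 245 gene results on the same side of the threshold and lost COL13A1 in B2B with SR11302 (-0.62), COL9A3 in B2B with SP600125 (0.98) and the SR11302 interactions of COL4A4 (0.96) and COL5A3 (1.01). Leaving out the second untreated libraries for the genes that make and modify collagen was added after seeing the data. DESeq2 left 237, RLE factors 243 and library size alone 240.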

Other observations

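Of the collagen genes too low to test, COL28A1 had 8 and 22 counts in A549_SR11302, 3 and 3 in A549_NT and 4 and 3 in A549_SP600125, and at most 2 in any B2B library. COL22A1 had 7 counts over A549_NT and none in any B2B library.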
